A study of Mus musculus with 6 samples.

Results

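The genes described here are 10 enzymes and enzyme subunits of the phosphagen system and of glycogen metabolism. They were taken by symbol (Ckm, Ckb, Ckmt2, Ampd1, Adssl1, Pygm, Pygb, Phka1, Phkg1 and Gys1) from a deposited table of 16854 genes, and all 10 were present. The RNA came from C2C12, a mouse myoblast line that fuses into myotubes once serum is lowered. The knockdown group was 3 libraries of C2C12 cells that stably expressed a short hairpin RNA against Adamtsl2, and the control group was 3 libraries of C2C12 cells with a scrambled hairpin. Both groups had spent 3 days in 2% horse serum after reaching confluence. The labels give neither the number of hairpin sequences nor the number of cell clones, so an effect of losing Adamtsl2, of the hairpin on other transcripts and of differences between stable cell populations cannot be told apart. Nothing in the labels says that the libraries of a group came from separate cultures, so p-values measure the spread between these libraries, which may be technical.

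Creatine kinases move a phosphate group between creatine and ADP and so buffer ATP during contraction; Ckm is the cytosolic muscle isoform, Ckb the cytosolic brain isoform and Ckmt2 the sarcomeric mitochondrial isoform. Ampd1 and Adssl1 are the muscle enzymes of the purine nucleotide cycle, which turns AMP into IMP and back during heavy work. Glycogen phosphorylase releases glucose 1-phosphate from glycogen, with Pygm as its muscle and Pygb as its brain isoform. It is switched on by phosphorylase kinase, of which Phka1 is the muscle regulatory alpha subunit and Phkg1 the muscle catalytic gamma subunit, whereas Gys1, the synthase of muscle and most tissues other than liver, builds the chain. Ckm and Pygm are commonly used as signs that myoblasts have matured into muscle fibres.

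Recovered reads totalled 39913603 to 49367857 in knockdown libraries and 37346439 to 50329438 in control libraries. The labels' protocol names 20000000 to 30000000 reads a library, so whether 1 recovered unit, called a read here, is a read or another counted unit is not settled. Adamtsl2 stood at normalised counts of 23.2, 21.7 and 7.83 in the knockdown and at 1325, 1266 and 1307 in control. All 10 markers listed for differentiated muscle were lower in the knockdown, with summed normalised counts of 8428 to 9979 against 1208690 to 1250460 in control, so the label of differentiating muscle held for the control cells by these markers. In bulk RNA, fewer cells of a type and less RNA per cell cannot be told apart. Knockdown library 3 stood apart from knockdown libraries 1 and 2: its log2 values correlated with theirs at 0.917 and 0.920 across genes, where libraries 1 and 2 correlated at 0.996 and controls at 0.993 to 0.995. The nuclear RNA Malat1 took 2.83% of its reads, against 0.511% and 0.515% in knockdown libraries 1 and 2 and 0.302% to 0.333% in control. Neat1, another nuclear RNA, did not set that library apart, with 62128, 58069 and 56918 in the knockdown, against 12336, 13944 and 11990.1 in control. For the 10 genes and the other pathway genes named, values without that library are therefore also given where leaving it out changes the call.

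Of the 10 genes, 8 were lower in the knockdown, 1 was higher and 1 did not pass, at an adjusted p under 0.05 (limma, Benjamini-Hochberg over all 16245 genes tested). The background of this comparison is wide: 23.5% of all tested genes were lower, 21.7% were higher and 45.2% were called in either direction. Changes of -5 or below on the log2 scale that also passed made up 2.59% of tested genes. Among them were 4 of the 10 (Ckm, Ckmt2, Pygm and Ampd1). Ckmt2 passed the filter on low values through its control libraries alone, so a difference was required of it in all these counts. The median log2 change of the 10 genes was -3.93, and was also -3.93 with Ckmt2, which had 0 reads in the knockdown, set at its bound; over all genes tested the median was -0.0013. Without knockdown library 3, 8 of the 10 were lower and 2 were higher, where 39.9% and 38.6% of all genes were, or 78.5% in either direction. Groups did not overlap for 8 genes that were lower and 1 that was higher, where 32.7% and 30.0% of all tested genes were separated in these directions and 62.6% in either. Together the 10 genes took 0.0137% to 0.0256% of reads in knockdown libraries and 0.265% to 0.291% in control libraries.

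**Figure D1:**
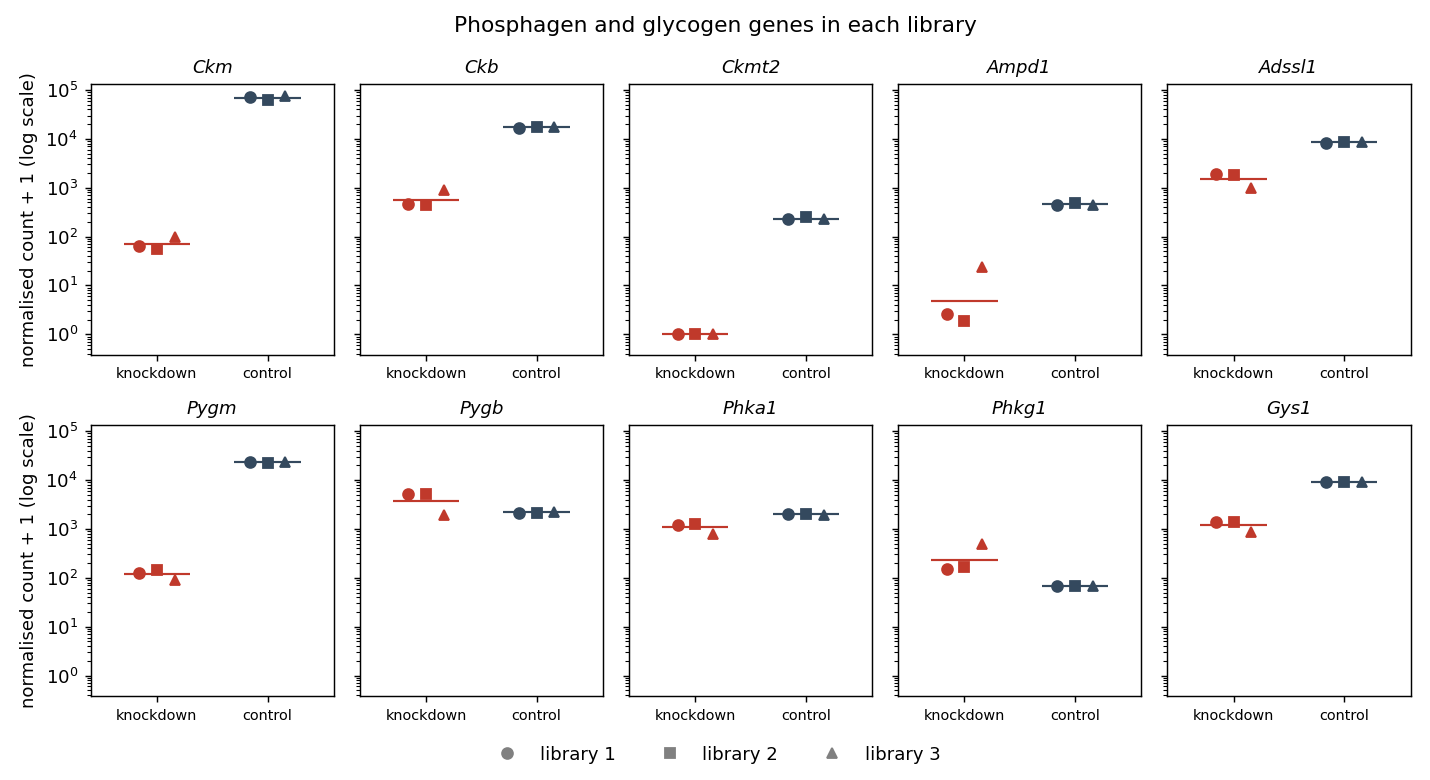
Normalised count plus 1 (log scale) of each of the 10 genes in every library, with knockdown left and control right; points are single libraries and the line is their mean on the log scale. Ckm lies between 54.4 and 95.02 in the knockdown and between 61956 and 75371 in control, Pygb overlaps between the groups, and Phkg1 is higher in all 3 knockdown libraries.

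Promoter windows are shown for the 3 most strongly lowered genes that a RefSeq promoter table (GRCm38.p6) holds, Ckm, Ckmt2 and Pygm, and for Phkg1, the gene that rose. Windows run from 250 bases before to 50 bases after the RefSeq start site, 5′ to 3′ on the gene's strand, and capitals mark CANNTG, the E-box core that basic helix-loop-helix factors such as Myog and Myod1 bind. The windows are chr7:19410844-19411143 (plus strand, Ckm), chr13:91876836-91877135 (minus strand, Ckmt2), chr19:6384158-6384457 (plus strand, Pygm) and chr5:129879039-129879338 (minus strand, Phkg1). Those of Ckm and Phkg1 lie inside the gene spans of GENCODE M21, which begin upstream, at 19404776 (Ckm) and 129898549 (Phkg1). Some exons in that annotation lie upstream of these 2 start sites, so the windows need not be the promoter of all the counted RNA.
Ckm: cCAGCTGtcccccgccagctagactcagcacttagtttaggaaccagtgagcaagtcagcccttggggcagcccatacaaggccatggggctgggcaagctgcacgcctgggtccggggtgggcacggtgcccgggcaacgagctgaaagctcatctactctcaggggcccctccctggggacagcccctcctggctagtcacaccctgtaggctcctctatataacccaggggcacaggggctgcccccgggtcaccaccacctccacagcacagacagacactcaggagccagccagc
Ckmt2: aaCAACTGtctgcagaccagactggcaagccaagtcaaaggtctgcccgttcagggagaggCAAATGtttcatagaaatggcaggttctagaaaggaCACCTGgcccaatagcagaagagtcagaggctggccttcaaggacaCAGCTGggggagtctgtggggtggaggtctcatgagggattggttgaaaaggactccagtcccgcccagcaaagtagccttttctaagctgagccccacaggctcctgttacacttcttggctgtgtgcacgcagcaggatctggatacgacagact
Pygm: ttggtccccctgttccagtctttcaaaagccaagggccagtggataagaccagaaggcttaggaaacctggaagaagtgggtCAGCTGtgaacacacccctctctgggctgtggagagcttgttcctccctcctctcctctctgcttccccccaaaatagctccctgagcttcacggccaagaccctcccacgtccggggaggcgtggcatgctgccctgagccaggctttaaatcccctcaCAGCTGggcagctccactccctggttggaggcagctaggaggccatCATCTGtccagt
Phkg1: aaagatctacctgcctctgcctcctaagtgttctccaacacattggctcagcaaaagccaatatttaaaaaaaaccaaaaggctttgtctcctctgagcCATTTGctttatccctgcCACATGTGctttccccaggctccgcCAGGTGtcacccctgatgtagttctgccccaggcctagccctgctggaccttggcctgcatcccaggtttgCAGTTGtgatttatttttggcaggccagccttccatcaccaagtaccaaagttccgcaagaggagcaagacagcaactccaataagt

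The window of Ckm held 1 CANNTG, that of Ckmt2 held 4, that of Pygm held 3 and that of Phkg1 held 5, of which a pair overlapped. CANNTG reads alike on both strands and was present in 72.3% of 32841 promoter windows of this length, and 5 or more in 2.09%. The form CAGCTG, also alike on both strands and contained in CANNTG, was found in Ckm (starting 249 bases before the start site), Ckmt2 (107 bases before) and Pygm (168 and 8 bases before), and 16.3% of all windows held it. The Phkg1 window held 0 CAGCTG. Of the 9 members with a window, 7 held CANNTG and 5 held CAGCTG. On either strand, CATTCC, the core of the MCAT element, was found in 1 of these 9 windows and in 14.7% of all windows, and the MEF2 motif in 1 of 9 and in 3.19% of all. Both of these lay in the window of Ckb. The CArG motif was in 0 of the 9 windows and in 1.63% of all. These are matches of letters, with no measurement of binding.

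Creatine kinase transcripts were lower in the knockdown for the 3 isoforms analysed; Ckmt1, the widely expressed mitochondrial isoform, was not analysed here. Ckm (ENSMUSG00000030399, GRCm38 chromosome 7, 19404776 to 19422841, plus strand) had normalised counts of 62.2, 54.4 and 95.02 in the knockdown libraries, against 71092, 61956 and 75371 in the control libraries. The knockdown mean was 0.102% of the control mean, and the 2 groups lay far apart. Its log2 change was -9.96 ± 0.23 (SE, with n = 3 libraries a group here and below; limma adjusted p = 4.1e-06), the 10th most negative among 16245 genes. Ckb (ENSMUSG00000001270, chromosome 12, 111669361 to 111672338, minus strand) had 468, 448 and 880 in the knockdown, against 16769.8, 17523 and 17580.5 in control. Every knockdown value was well under every control value, and knockdown library 3 was the highest of its group. The change on the log2 scale was -4.92 ± 0.27 (limma adjusted p = 6.2e-05).

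Ckmt2 (ENSMUSG00000021622, chromosome 13, 91853387 to 91876885, minus strand) had 0 reads in each of the 3 knockdown libraries, against 208, 198 and 234 reads in the control libraries, or normalised counts of 227, 250.1 and 222. It was at least 83.7-fold lower, with 3 reads per knockdown library taken as the floor that a count of 0 allows; the floor covers counting error only. It passed the filter on low values through its control libraries alone, so a difference was required of it. Its limma call (adjusted p = 1.3e-05) rests on a fitted change that moves with the pseudocount.

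The muscle isoform of creatine kinase held most of the cytosolic creatine kinase RNA in control cells and little of it in the knockdown. On a scale of normalised counts per kb of exonic length, Ckm made up 11.7%, 10.8% and 9.69% of the sum of Ckm and Ckb in knockdown libraries 1 to 3, against 80.8%, 77.8% and 81.0% in control libraries 1 to 3. The share was lower in every knockdown library, and library 3 was close to libraries 1 and 2. The summed level per kb was 231 ± 91.5 in the knockdown and 29822 ± 2335 in control (SD, n = 3), 129-fold lower, or 167-fold without knockdown library 3. The log2 ratio of Ckm to Ckb was -3.04 ± 0.15 in the knockdown and 2.00 ± 0.16 in control, a difference of -5.04.

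An exact two-sided permutation test of this ratio gave p = 0.1, and no smaller value can be reached with 3 libraries a group. The same exact permutation test on 8 pairs of related genes gave p = 0.1 for each, and 0.1 adjusted over the 8 pairs, with groups that did not overlap in any pair. Of all single genes tested, 62.6% were separated in either direction, and no such share was computed over pairs of genes. The pairs were built on members chosen with earlier results known, so this count is not a result about the isoforms. For the pair of Ckm and Ckmt2 the ratio depends on the pseudocount, since Ckmt2 had 0 reads in the knockdown, and no size is given.

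**Figure D2:**
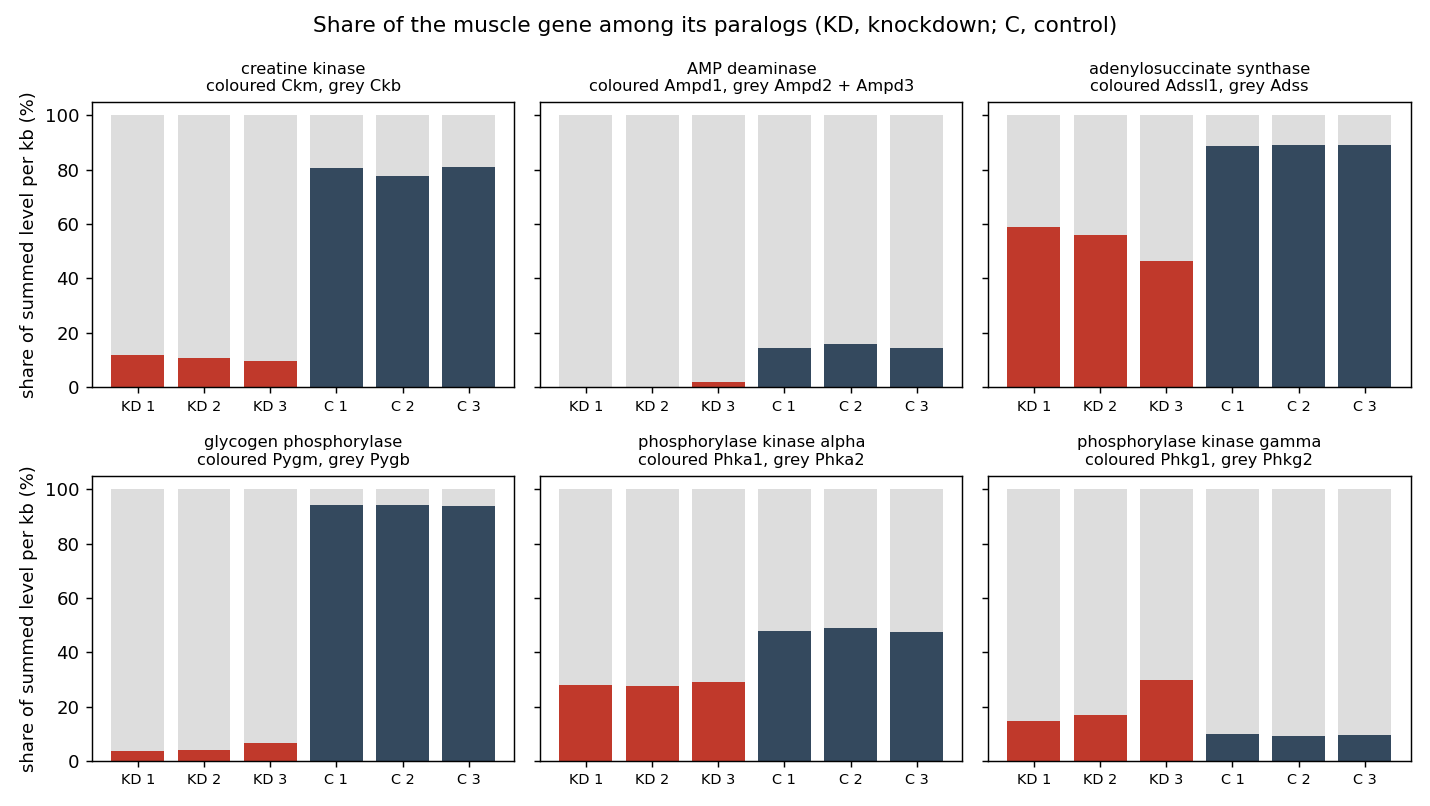
Share (%) of the coloured muscle gene in the summed level per kb of exonic length of its family, in each knockdown (KD) and control (C) library, with its paralogs in grey. Ckm lies at 9.69% to 11.7% in the knockdown and at 77.8% to 81.0% in control, Pygm lies at 3.56% to 6.63% against 93.9% to 94.2%, and the share of Phkg1 is higher in the knockdown.

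Other genes of creatine supply and of adenylate kinase, which interconverts ATP, ADP and AMP, were lower in 5 and higher in 1 of 8 cases. For this and the later lists, the shares over all tested genes were 23.5% lower and 21.7% higher. Without knockdown library 3 they were 39.9% and 38.6%. Gatm and Gamt, the pair of enzymes that make creatine, stood at 583 ± 77.7 and 1455 ± 130.1 in the knockdown, against 3159 ± 138 and 4449 ± 86.6 in control (SD, n = 3). Both fell, by 2.44 ± 0.14 and 1.62 ± 0.11 on the log2 scale (limma adjusted p = 6.6e-05 for Gatm and 1.4e-04 for Gamt). The creatine transporter Slc6a8 averaged 6623 ± 1575 in the knockdown and 6613 ± 29.8 in control, a log2 change of -0.03 ± 0.20 that did not pass (adjusted p = 0.92). It was 0.18 ± 0.05 higher without knockdown library 3 (limma adjusted p = 0.012). The knockdown values of Slc6a8 ran from 4872 in library 3 to 7923 in library 1 and surrounded the control values.

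The cytosolic adenylate kinase Ak1 fell by 1.56 ± 0.14 to 6490.0 ± 699 in the knockdown, against 19106 ± 992 in control. Ak5, another cytosolic adenylate kinase, fell by 1.78 ± 0.21, and the mitochondrial Ak4 rose by 1.67 ± 0.30. Ak6 fell by 0.56 ± 0.17 (limma adjusted p = 0.039), a call that edgeR did not make (adjusted p = 0.055) and that was lost when any library but knockdown 3 was left out; 59.1% of the exonic bases of Ak6 also lie in exons of other genes. Without knockdown library 3, 6 of the 8 were lower and 2 were higher.

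In the purine nucleotide cycle both muscle members fell, while Ampd3 rose and Ampd2 and Adss did not pass with all 6 libraries. Ampd1 (ENSMUSG00000070385, chromosome 3, 103074014 to 103099720, plus strand), the muscle AMP deaminase, had normalised counts of 1.66, 0.836 and 22.4 in the knockdown (2, 1 and 20 reads), against 446, 476 and 443 in control. Knockdown library 3 alone reached above 10, and all 3 stayed far under control. The log2 change was -6.55 ± 0.95 (limma adjusted p = 0.0023) and -7.69 ± 0.22 without knockdown library 3. The control libraries of Ampd1 were enough to pass the filter on low values, and knockdown library 3 also reached 10. Without knockdown library 3, only control libraries reached 10, so a difference was required of Ampd1 in that fit. The fitted size of the change in Ampd1 also moves with the pseudocount, as for Ckmt2, while its direction does not.

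Ampd3, the AMP deaminase isoform named for red blood cells, averaged 1400.1 ± 543 in the knockdown and 318 ± 45.3 in control and rose by 2.05 ± 0.34 (limma adjusted p = 0.0040). Of the exonic bases of Ampd3, 8.42% also lie in exons of other genes. Among these, Rnf141 on the other strand was also higher (log2 0.94, limma adjusted p = 0.0011). Ampd2, the isoform named for liver, averaged 2124 ± 872 in the knockdown and 3530.2 ± 110.2 in control, with a log2 change of -0.84 ± 0.35 that did not pass (adjusted p = 0.098); without knockdown library 3 it was lower (log2 -0.43 ± 0.05, limma adjusted p = 3.0e-05). Per kb, Ampd1 made up 0.0563%, 0.0300% and 1.76% of the summed AMP deaminase level in knockdown libraries 1 to 3, against 14.4% to 15.8% in control. Most AMP deaminase RNA per kb was thus that of Ampd2 and Ampd3 in both groups.

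Adssl1 (ENSMUSG00000011148, chromosome 12, 112620045 to 112641360, plus strand), the muscle adenylosuccinate synthase, had 1929, 1782 and 964 in the knockdown, against 8310.3, 8408 and 8633 in control. All knockdown values were under the control values, and library 3 was the lowest. This amounted to a log2 change of -2.50 ± 0.27 (limma adjusted p = 7.7e-04). Its relative Adss, found in most tissues, averaged 2784 ± 318 in the knockdown and 2272 ± 31.6 in control and did not pass (log2 0.29 ± 0.12, adjusted p = 0.11), although the groups did not overlap; without knockdown library 3 it was higher (log2 0.38 ± 0.05, limma adjusted p = 3.8e-05). Adssl1 held 46.3% to 59.0% of the pair's level per kb in the knockdown and 88.6% to 89.3% in control, and the log2 ratio of Adssl1 to Adss differed by -2.79.

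Of the other genes of purine handling, 2 of 8 tested rose and 2 fell. Adsl, the lyase that completes the cycle, fell by 1.09 ± 0.10 and the nucleotidase Nt5c2 fell by 0.63 ± 0.16 (a call lost without any 1 control library), while Ampd3 and the nucleotidase Nt5c1b rose. Nt5c1b was low throughout, at 21.5 ± 3.50 in the knockdown and 2.62 ± 1.02 in control, and passed the filter through the knockdown libraries alone. Without knockdown library 3, 3 were higher and 4 lower.

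Glycogen phosphorylase changed in which isoform predominated. Pygm (ENSMUSG00000032648, chromosome 19, 6384399 to 6398459, plus strand), the muscle isoform, had normalised counts of 127, 142 and 90.5 in the knockdown, against 23365, 22747 and 23371 in control. The knockdown mean was 0.518% of the control mean, and no values overlapped. Its log2 change was -7.61 ± 0.18 (limma adjusted p = 4.8e-06), and its promoter window, printed above, is the one with CAGCTG at 168 and 8 bases before the start site. Pygb (ENSMUSG00000033059, chromosome 2, 150786735 to 150831758, plus strand), the brain isoform, had 5133, 5143 and 1907 in the knockdown, against 2145, 2121 and 2251 in control. Knockdown libraries 1 and 2 were more than double every control value in normalised count, whereas library 3 was under all 3 controls.

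The change of Pygb did not pass (log2 0.77 ± 0.40, limma adjusted p = 0.17; exact two-sided permutation p = 0.4), nor did it in edgeR on the recovered reads (adjusted p = 0.088) or in the authors' deposited table (log2 0.90, adjusted p = 0.055). Without knockdown library 3 it was 1.24 ± 0.05 higher (adjusted p = 4.8e-09), and DESeq2 with all 6 libraries also called it higher (adjusted p = 0.047). The call of Pygb therefore rests on whether that 1 library is used. With all 6 libraries it differed between fits. DESeq2 (log2 0.91) and the deposited table lay close to the threshold, on either side of it.

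Per kb, Pygm made up 3.56%, 3.97% and 6.63% of the sum of Pygm and Pygb in knockdown libraries 1 to 3, against 94.2%, 94.1% and 93.9% in control libraries 1 to 3. The share was low in each knockdown library, library 3 included. The log2 ratio of Pygm to Pygb was -4.96 ± 0.51 in the knockdown and 3.41 ± 0.04 in control, a difference of -8.37, or -8.66 without knockdown library 3. The summed level per kb was 882 ± 396 in the knockdown and 7649 ± 121 in control (SD, n = 3), 8.68-fold lower, or 6.89-fold without knockdown library 3. The liver isoform was not analysed here.

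**Figure D3:**
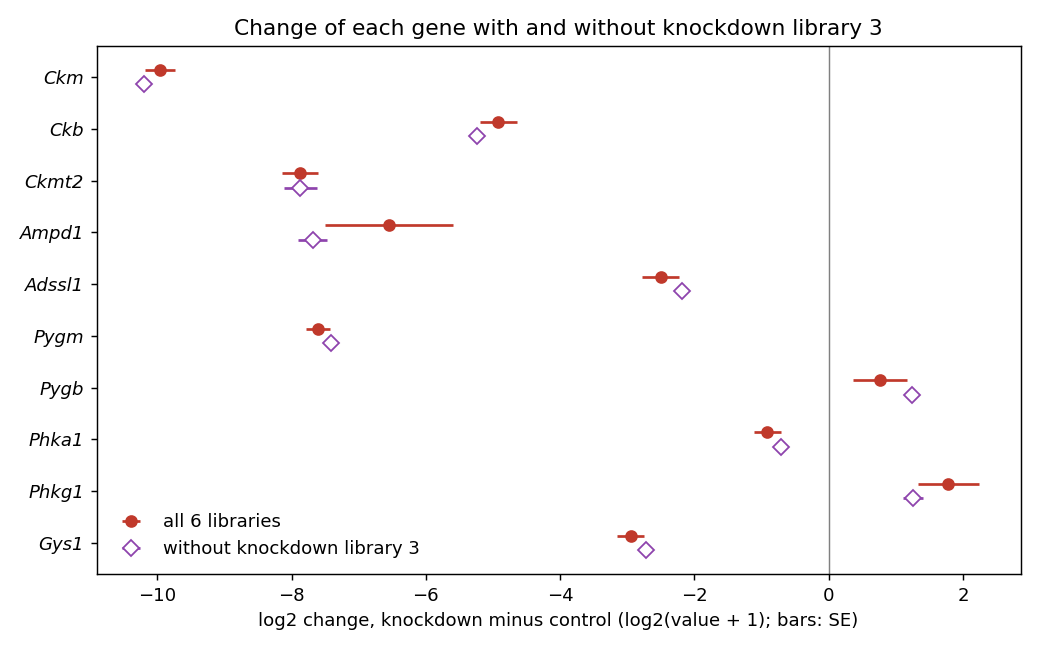
Log2 change (knockdown minus control, on log2(value + 1)) of the 10 genes with its SE, with all 6 libraries (filled) and without knockdown library 3 (open). Ampd1 moves from -6.55 to -7.69 and Pygb from 0.77 to 1.24 when that library is left out, and the direction of each of the 10 genes is the same in both fits.

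Phosphorylase kinase subunits changed in both directions. Phka1 (ENSMUSG00000034055, chromosome X, 102513975 to 102644246, minus strand), the muscle alpha subunit, had 1198, 1277 and 800.4 in the knockdown, against 2060.4, 2054 and 1937 in control. Each knockdown value was under each control value. The fitted log2 change was -0.91 ± 0.20 (limma adjusted p = 0.012), with an adjusted p of 0.052 when control library 1 was left out. Phka2, the alpha subunit of liver, averaged 2723 ± 731 in the knockdown and 2112 ± 56.6 in control and did not pass (log2 0.33 ± 0.22, adjusted p = 0.28); without knockdown library 3 it was higher (log2 0.57 ± 0.05, limma adjusted p = 3.9e-06). Phka1 held 27.6% to 29.1% of the alpha subunit level per kb in the knockdown and 47.3% to 49.0% in control. The summed alpha level per kb was 623 ± 161 in the knockdown and 670.3 ± 16.9 in control.

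Phkg1 (ENSMUSG00000025537, chromosome 5, 129863421 to 129898549, minus strand), the muscle catalytic subunit, had 153, 169 and 481 in the knockdown, against 66.5, 66.9 and 67.5 in control. All knockdown values were above the control values, and library 3 was the highest by a wide margin. Its log2 change was 1.78 ± 0.45 (limma adjusted p = 0.021) and 1.25 ± 0.15 without knockdown library 3 (adjusted p = 2.5e-05). Leaving out any 1 control library gave an adjusted p of 0.071 to 0.072. Per kb of exonic length its level was 41.1 in the knockdown and 10.3 in control, against 145 and 98.6 for its relative Phkg2. The exonic length of Phkg1 is 6509 bases and its principal transcript has 2374, so the level per kb depends on the length used.

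Phkg2, the gamma subunit of liver and testis, averaged 582 ± 98.4 in the knockdown and 395 ± 13.7 in control and rose by 0.55 ± 0.16 (limma adjusted p = 0.034). That call was lost without knockdown library 1 or any 1 control library, with an adjusted p of up to 0.125. The log2 ratio of Phkg1 to Phkg2 was higher by 1.23 in the knockdown, or by 0.84 without knockdown library 3. Phkb, the beta subunit that the kinase uses in all tissues, averaged 6888 ± 327 in the knockdown and 4354 ± 198 in control and rose by 0.66 ± 0.11 (adjusted p = 0.0038). In GENCODE M21, 9.68% of the exonic bases of Phkg1 are also exons of Sumf2 on the other strand, and 21.9% of those of Phkg2 of Ccdc189. Sumf2 did not pass (log2 -0.15, adjusted p = 0.31) and Ccdc189 was higher (177, 156 and 256 in the knockdown, against 71.9, 61.9 and 68.4 in control; limma adjusted p = 0.0035); the strand setting of the counting is not given in the sources used here, so reads in the shared bases cannot be assigned.

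Some markers of other cell types were raised in knockdown library 3, and others were not. In that library Ckm, Ckb, Ampd1 and Phkg1 were the highest of their group and Adssl1, Pygm, Pygb, Phka1 and Gys1 the lowest. The 4 neural and Schwann cell markers in the table of 7 listed summed to 148, 166 and 625 in knockdown libraries 1 to 3, against 210 to 258 in control. The neuronal marker Rbfox3 was at 0.829, 0.836 and 70.4 in the knockdown, against 1.09, 1.26 and 0 in control. Tubb3, of the same list, was instead lowest in library 3, at 68.0, 85.3 and 34.7 in the knockdown. The only endothelial marker in the table of 5 listed, Pecam1, was at 4.97, 2.51 and 68.2 in the knockdown, against 1.90 to 4.36 in control. The 3 macrophage and leukocyte markers of 5 listed summed to 63.8, 78.6 and 129.7 in the knockdown, against 98.1 to 139 in control. The value of library 3 thus lay within the control range. Csf1r had 8.29, 9.20 and 72.7 in the knockdown, whereas Cd68 was lowest in library 3 (55.5, 69.4 and 51.4). Itgam, at 0, 0 and 5.59, stayed under every control value. Osteoblast and chondrocyte markers (2 of 6) summed to 4609, 4485 and 9055 in the knockdown, against 2592 to 2997 in control. Adipocyte markers (2 of 6) summed to 5029.9, 4962 and 13645 in the knockdown, against 2957 to 3080.3 in control. That sum is mostly Lpl, at 4470, 4378 and 13237 in knockdown libraries 1 to 3, which did not pass (limma adjusted p = 0.074). Pparg was instead lowest in library 3, at 560, 584 and 408, and was higher than control (limma adjusted p = 0.0021). The 6 fibroblast markers of 7 summed to 434599, 430399 and 292504 in knockdown libraries 1 to 3, against 466393 to 493557 in control. In control and in knockdown libraries 1 and 2 the fibroblast sum was mostly Col3a1. Col3a1 had 362051, 356900 and 145200 in knockdown libraries 1 to 3. Dcn moved the other way in library 3, with 68597, 69622 and 145067. Against control, Dcn rose (log2 4.22, limma adjusted p = 1.7e-04), Pi16 fell and 4 of the fibroblast markers did not pass. Without knockdown library 3, Pdgfra was also higher and Lum and Col3a1 also lower (limma adjusted p = 2.9e-06, 0.0069 and 0.0018). The 6 myoblast markers summed to 18814 to 19665 in the knockdown, against 60090 to 60879 in control. Of them 4 fell, while Sdc4 (log2 1.28, limma adjusted p = 0.0019) and Myf5 (log2 0.47, adjusted p = 0.025) rose. The limma adjusted p of Myf5 reached up to 0.103 when 1 library was left out. Pax7, a satellite cell marker, and Itgam, a leukocyte marker, had 0 reads in knockdown libraries 1 and 2, and Rbfox3 had 0 in control library 3. The other listed markers were not analysed here. The part of these markers in the results was not tested; the 8 genes that fell were lower with and without that library.

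On the side of glycogen building, Gys1 (ENSMUSG00000003865, chromosome 7, 45434844 to 45456619, plus strand) had 1410.2, 1368 and 878 in the knockdown, against 9166, 9335 and 9121 in control. The groups were well apart, and library 3 was the lowest. On the log2 scale the change was -2.95 ± 0.20 (limma adjusted p = 1.3e-04), and the knockdown mean was 13.2% of the control mean. Of its exonic bases, 6.47% are shared with Ruvbl2 on the other strand, which was also lower (log2 -0.80, limma adjusted p = 0.025).

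Of 5 other genes of glycogen synthesis, 2 fell and 2 rose, with the same counts without knockdown library 3. Gyg, the primer on which a glycogen particle starts, averaged 1584 ± 74.1 in the knockdown and 5514 ± 221 in control and fell by 1.80 ± 0.10. Ugp2, which makes the glucose donor UDP-glucose, fell by 1.70 ± 0.18. Gbe1, the branching enzyme, rose by 0.53 ± 0.16 (limma adjusted p = 0.040), and Gsk3b, a kinase that inhibits glycogen synthase, rose by 0.47 ± 0.13 (adjusted p = 0.029). Both calls were lost when any library but knockdown 3 was left out, with an adjusted p of up to 0.151 for Gbe1 and 0.117 for Gsk3b. Gsk3a, its close relative, did not pass (log2 -0.34 ± 0.22, adjusted p = 0.25).

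Of 7 other genes of glycogen breakdown, 3 rose (Phkb, Phkg2 and Pgm2l1) and 1 fell. Pgm2, as the table names this phosphoglucomutase, fell by 0.72 ± 0.20 (limma adjusted p = 0.031), a call lost without any 1 control library (adjusted p of up to 0.102). Pgm2l1, a relative of the phosphoglucomutases, rose by 2.39 ± 0.29. The lysosomal alpha-glucosidase Gaa had 15293, 14487 and 5650 in the knockdown, against 9847, 9796 and 9542 in control. Like Pygb, it was above control in knockdown libraries 1 and 2 and under it in library 3, and it did not pass (log2 0.15 ± 0.39, adjusted p = 0.79). It was higher without knockdown library 3 (log2 0.61 ± 0.05, limma adjusted p = 7.3e-07). Without knockdown library 3, 5 of the 7 were higher and 2 lower.

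The subunits that bring protein phosphatase 1 to the glycogen particle held the largest changes among the 35 other pathway genes, in both directions. Ppp1r3a, the targeting subunit of striated muscle, had 0, 0.836 and 3.35 in the knockdown, against 896, 831 and 744 in control. Every knockdown value was near 0, and its log2 change was -8.68 ± 0.54 (limma adjusted p = 9.3e-05). Ppp1r3c, the widely expressed subunit also called PTG, had 185, 193 and 235 in the knockdown, against 4.36, 1.26 and 3.80 in control. It rose by 5.72 ± 0.40 (adjusted p = 1.4e-04), with 3 knockdown libraries that lay close together. Ppp1r3b, the subunit named for liver, averaged 40.0 ± 5.42 in the knockdown and 3.92 ± 1.46 in control and rose by 3.09 ± 0.35 (adjusted p = 8.8e-04). Ppp1r3a passed the filter on low values through its control libraries alone, and Ppp1r3c and Ppp1r3b through the knockdown libraries alone, so a difference was required of these 3. Per kb, Ppp1r3a stood at 0.201 in the knockdown and 118 in control, and Ppp1r3c at 75.0 in the knockdown and 1.15 in control.

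In the same list of 7 tested genes, 2 fell and 2 rose, also without knockdown library 3. Stbd1, a protein that tethers glycogen to membranes, averaged 715 ± 152 in the knockdown and 3574 ± 86.3 in control and fell by 2.34 ± 0.17. Ppp1r3e, Ppp1r3f and Epm2a, the laforin phosphatase, did not pass, with log2 changes of 0.07, -0.58 and 0.04. Over the 35 genes of the 5 lists together, 12 were lower and 10 higher, with a median log2 change of -0.30, where 23.5% and 21.7% of all tested genes were and the median was -0.0013. Without knockdown library 3, 16 were lower and 14 higher, with a median of -0.11. In that fit 39.9% of all tested genes were lower and 38.6% higher, or 78.5% in either direction, with a median of -0.0091.

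**Figure D4:**
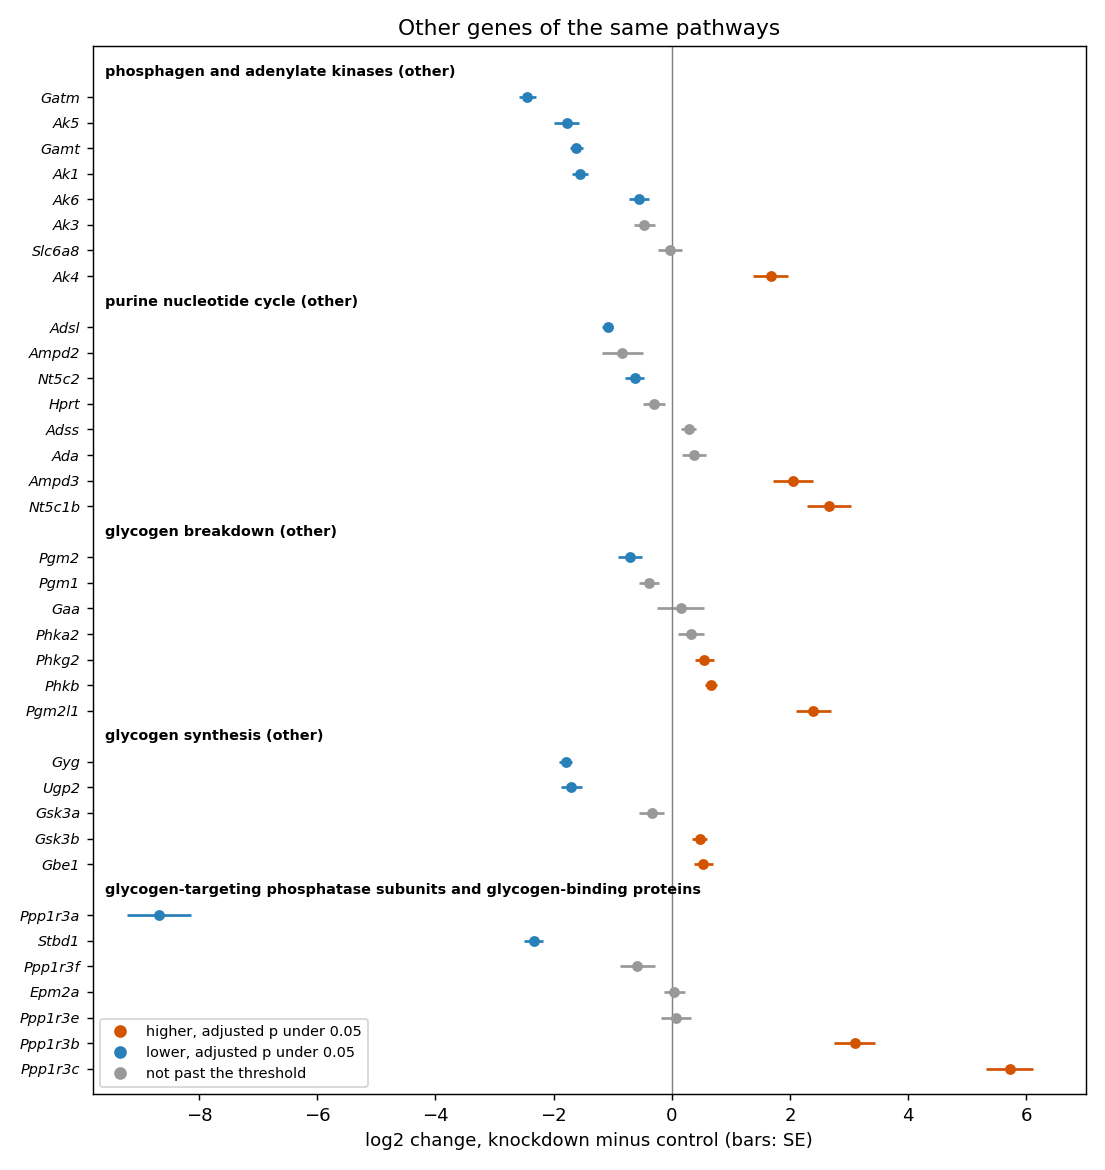
Log2 change (knockdown minus control) with its SE of the 35 other genes of creatine and adenylate kinase, purine, and glycogen pathways, by list; orange is higher and blue is lower at an adjusted p under 0.05, grey did not pass. Ppp1r3a at -8.68 and Ppp1r3c at 5.72 are the 2 ends of the plot.

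The genes whose profile over the 6 libraries lay nearest to that of Ckm, among 11831 with a mean of at least 100, were Myom3 (an M-band protein), Myh8 (perinatal myosin heavy chain), Tnnc2 (fast troponin C), Scn4a (the muscle sodium channel) and Afap1l1 (an actin filament-associated protein). Their root mean square differences from Ckm were 0.268 to 0.414 on the log2 scale, with each gene centred on its control mean. The 5 nearest to Phkg1 were Xpa (DNA repair), Nfkbia (an inhibitor of NF-kappa B), Lpar4 (a lysophosphatidic acid receptor), Hist3h2a (a histone) and Psip1 (a chromatin protein), at 0.0764 to 0.0936. Each of the 5 had its highest value in knockdown library 3; Xpa, for example, had 1260.2, 1303 and 4193 in the knockdown, against 527, 534 and 518 in control. Likeness over 2 groups of 3 libraries is a description of these libraries.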

How the data were processed

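RNA was measured in 3 knockdown and 3 control libraries, grouped and numbered by their titles. Per the labels, poly(A) RNA was selected and sequenced on an Illumina HiSeq. The tools named in the submitters' processing notes are DESeq2, featureCounts, Subread 1.5.2 and Trimmomatic 0.36, with build GRCm38. No aligner, annotation release or strand setting is named there. As to units, the deposited signal per gene and library is a count that the authors divided by a size factor, called normalised count here. Within a tolerance of 0.01 reads, 100% of values were whole multiples of 1 read, so whole reads were recovered. The authors' deposited table also holds log2 fold changes and p-values of their own comparison, cited only where named.

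limma 3.58.1 (R 4.3.3) was fitted with a mean-variance trend to log2(value + 1) over the 16245 genes that reached 10 in 3 or more libraries; tests were two-sided and Benjamini-Hochberg adjusted p-values were read at 0.05. Fold changes on this scale understate the change of low genes. All 10 members passed that filter. With edgeR 4.0.16 on the recovered reads, 3579 genes were lower and 3765 were higher; DESeq2 1.42.0 was a further alternative. The fit was also run on simulated data that had the spread of the control libraries only. That run leaves out the spread of knockdown library 3 and its outcome is not reported here, so nothing is drawn from it. Levels per kb use exonic length in GENCODE M21 (GRCm38), in which 16812 gene identifiers were found. The members and lists were chosen with earlier results of these data known. Some genes of these pathways are not reported here. Genes named were all members, Adamtsl2, the paralogs compared, up to 4 per direction of each list by adjusted p, and 5 nearest profiles each for Ckm and Phkg1; overlapping genes, markers, and list genes that did not pass were named after their values were seen. A chi-square per gene of 3.85 to 15.9 between the closest replicates, where 1 is sampling noise, left no pair counted as 1 sample.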

Additional observations from a re-analysis of the deposited data

How the results depend on the processing

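Every one of the 10 genes kept its direction under each alternative (filter removed or raised to 50, pseudocount 0.5 or 5, scaling by TMM or upper quartile, no trend, edgeR, DESeq2, a replicate block, each library left out). Upper-quartile scaling moved the median of all genes by 0.116 and edgeR by 0.109 on the log2 scale, and the calls of the 10 genes were the same under both. The number of members lower was 8 in the main fit and 7 to 8 with 1 library left out; the number higher was 1, with 0 to 2 when 1 library was left out, 2 with DESeq2, 2 with edgeR without knockdown library 3 (added after seeing the data) and 0 at an adjusted p under 0.01. Phkg1 lost its call without any 1 control library, Phka1 without control library 1, and Pygb gained one without knockdown library 3 and with DESeq2. Over all genes, leaving out 1 library gave 2443 to 6269 higher and 2648 to 6485 lower, an adjusted p under 0.01 gave 2283 and 2545, and edgeR without knockdown library 3 gave 6489 and 6459. Of the 22 calls among the other pathway genes, 6 were lost when 1 library was left out (Ak6, Nt5c2, Pgm2, Phkg2, Gbe1 and Gsk3b), and of the 13 without a call, 8 gained one without knockdown library 3. Slc6a8 turned from -0.03 to 0.089 with upper-quartile scaling, 0.030 with edgeR, 0.015 with DESeq2 and 0.20 with edgeR without knockdown library 3; with 1 library left out it ran from -0.17 to 0.18, Gaa from -0.10 to 0.61, Ppp1r3e from -0.087 to 0.24 and Epm2a from -0.012 to 0.14. The cause was not tested. The replicate block changed no call of a member (3010 genes higher and 3301 lower overall) and ended those of Ak6, Pgm2, Phkg2, Gbe1 and Gsk3b (adjusted p of 0.059, 0.054, 0.078, 0.088 and 0.088); same-numbered libraries deviated together with correlations of 0.0169, 0.105 and 0.143, so the numbers were not taken as pairs, and 4 of 6 libraries correlated best with their own number. In percentage points, the share of Ckm differed by -69.2 between knockdown and control and by -62.1 with the length of the principal transcript (added after seeing the data), that of Phka1 by -19.9 and by -17.8. Without division by length, the share of Ampd1 differed by -10.2 in place of -14.3 and that of Adssl1 by -43.7 in place of -35.2. Depth limits Ckmt2 and Ampd1, with 0 to 20 reads in a knockdown library.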

Other observations

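A930016O22Rik, a transcript on the strand opposite to Ckm whose exons share 15.5% of the exonic bases of Ckm, was picked after its values were seen. It had normalised counts of 0, 0 and 1.12 in the knockdown, against 156, 128 and 178 in control. Its log2 change was -6.90 (limma adjusted p = 7.9e-05); it passed the filter on low values through its control libraries alone, so a difference was required of it. The strand setting of the counting is not given in the sources used here, so reads of Ckm and of this transcript cannot be told apart in the shared bases.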
